A study of Homo sapiens with 16 samples.

Results

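The genes described here are 8 WNT ligands, WNT3, WNT3A, WNT4, WNT5A, WNT5B, WNT6, WNT8A and WNT11, chosen by gene symbol from the platform annotation and followed in every array. They were read by 10 probes, since WNT5B and WNT8A have 2 probes each, and the brightest probe of a gene stood for it. The series names 20046 genes, of which 13395 were bright enough to be tested. Of the 8 ligands 7 were tested, and WNT11 was not, because its probe rose above background on 1 array only. The annotation names 19 WNT genes in all, and the other 11 are given as a group further on.

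The cells were H1, an established human embryonic stem cell line grown in mTeSR medium on Matrigel. One arm was untreated and the other received bone morphogenetic protein 4 (BMP4) at 100 ng per ml. Total RNA of each arm was hybridised to 1 Illumina bead array a day from day 0 to day 7, which gives 16 arrays, 8 per arm. No arm has a second array on any day, so arrays of neighbouring days stood in for replicates: days 1 to 3 formed an early window with 3 arrays per arm, and days 4 to 7 a late window with 4. Nothing in the labels says that the days came from separate cultures, so the p-values measure the spread between days, which holds the time course itself. The line is a single genotype and all cells of a well were measured together, so fewer cells of a type and less RNA per cell cannot be told apart in any value below.

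WNT proteins are secreted, lipid-modified glycoproteins that bind frizzled receptors. Canonical signalling runs through the co-receptors LRP5 and LRP6, stabilises beta-catenin and activates genes through TCF and LEF factors. Non-canonical signalling runs through ROR, RYK and frizzled receptors to the cytoskeleton and cell polarity without beta-catenin. In the gastrulating embryo WNT3 and WNT3A are known for their part in forming the primitive streak and the mesoderm, and WNT5A for the outgrowth of the body axis behind it. WNT3, WNT3A and WNT8A were grouped as canonical ligands, WNT5A, WNT5B and WNT11 as non-canonical, and WNT4 and WNT6 as ligands for which both modes have been described.

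The stretch upstream of the gene start is shown for 4 ligands, WNT3 as the one that peaked first, WNT3A as a second canonical ligand, and WNT5A and WNT5B as the non-canonical pair. Each line gives the 250 bases before the start of the gene, 5′ to 3′ on the strand of the gene, from RefSeq on GRCh38.p14. Capitals mark matches to the motifs searched on both strands. The motifs were CTTTGA for TCF and LEF factors, GGCGCC for the GC-rich element bound by SMAD1 and SMAD5, and AGGTGT for the T-box half-site.
WNT3, chr17:46818693-46818942, minus strand: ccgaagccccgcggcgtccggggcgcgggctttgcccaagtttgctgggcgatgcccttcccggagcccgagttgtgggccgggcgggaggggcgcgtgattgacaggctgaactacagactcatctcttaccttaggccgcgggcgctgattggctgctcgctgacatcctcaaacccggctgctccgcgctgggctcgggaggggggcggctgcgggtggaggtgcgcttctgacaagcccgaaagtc
WNT3A, chr1:228006748-228006997, plus strand: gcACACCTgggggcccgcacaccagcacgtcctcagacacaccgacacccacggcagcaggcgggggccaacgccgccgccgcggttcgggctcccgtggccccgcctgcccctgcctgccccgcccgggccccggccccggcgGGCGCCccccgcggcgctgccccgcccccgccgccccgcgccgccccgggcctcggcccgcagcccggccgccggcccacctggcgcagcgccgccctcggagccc
WNT5A, chr3:55487307-55487556, minus strand: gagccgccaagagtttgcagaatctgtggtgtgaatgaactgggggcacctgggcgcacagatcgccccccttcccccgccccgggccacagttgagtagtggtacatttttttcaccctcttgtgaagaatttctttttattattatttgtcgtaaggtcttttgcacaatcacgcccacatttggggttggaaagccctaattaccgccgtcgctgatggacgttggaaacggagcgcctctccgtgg
WNT5B, chr12:1616806-1617055, plus strand: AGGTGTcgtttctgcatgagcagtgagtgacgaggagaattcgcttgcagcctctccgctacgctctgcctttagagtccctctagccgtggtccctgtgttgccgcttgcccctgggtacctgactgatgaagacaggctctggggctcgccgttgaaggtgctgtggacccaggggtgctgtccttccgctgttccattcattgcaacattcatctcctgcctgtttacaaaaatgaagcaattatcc
The table held 9 such entries for 7 of the 8 ligands, with 2 each for WNT5A and WNT5B. WNT3A held 1 GGCGCC, 106 to 101 bases before the start, and 1 ACACCT, the reverse complement of AGGTGT, 248 to 243 bases before it. One WNT5B entry held AGGTGT 250 to 245 bases before its start, and none of the other 7 entries held any of the 3 motifs. Among 35116 promoters of the same length CTTTGA lay in 11.2%, GGCGCC in 16.4% and AGGTGT in 9.57%. The GC content was 86.8% for WNT4, 86.0% for WNT3A, 79.2% for WNT6 and 68.8% for WNT3, against a median of 58.0% over all promoters. It was 64.4% and 52.8% for the WNT5A entries, 54.8% and 50.8% for those of WNT5B, and 53.2% for WNT8A. A match describes these letters only and is no evidence that a factor binds.

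Levels are the authors' quantile-normalized intensities on a linear scale, with the same median of 128.3 on each array. The intensity above which a probe was called detected, here the floor, was 134.3. Before testing, an estimated background was removed, 16 was added and log2 was taken, and changes on the log2 scale are on that scale. Folds are on that corrected scale too. A fold against an arm at background is given as "at least", with the floor in place of the dim arm, and it is a bound only for this background estimate and this added constant. Ratios of the deposited intensities, which still hold the background, are smaller. Tests are two-sided contrasts from limma with Benjamini-Hochberg adjustment over the 13395 genes, and a gene passed at an adjusted p under 0.05.

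The 2 day 0 arrays were not alike. On day 0 1027 of the 13395 genes, 7.67%, lay more than 2-fold apart between the arms, with a median difference of 0.09 on the log2 scale. Among the ligands the BMP4-labelled array was higher by 1.25 for WNT3 and lower by 0.62 for WNT5A, and the other 6 differed by -0.11 to 0.38. The labels do not say whether the BMP4-labelled day 0 array was taken before BMP4 was added, so a difference at the start and a first response to BMP4 cannot be told apart there. The ligand calls of each window and the counts of each pathway list are therefore also given with the day 0 difference subtracted, which rests on 1 array per arm and has a wider error. Such a value takes away whatever the day 0 arrays differ by, of either kind. As a check of the label, all 9 pluripotency markers with a named probe, POU5F1, NANOG and SOX2 among them, were above the floor on all 16 arrays. Their summed intensity was 28859 to 35151 in the untreated arm, and in the BMP4 arm it was 38240 on day 0 and 11624 on day 7.

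The tested WNT ligands were at or near background in untreated H1 cells and higher with BMP4. In the early window 5 of the 7 tested ligands, WNT3, WNT3A, WNT5A, WNT5B and WNT8A, were higher with BMP4 and none lower, while 16.1% of all tested genes were called higher and 13.3% lower, 29.4% in all. In the late window 7 of 7 were higher, where 27.3% of all genes were called higher and 26.6% lower, 53.9% in all. Over days 1 to 7 as 1 span, 6 of 7 were higher, with 27.5% of all genes higher and 24.9% lower, 52.4% in all. The exception was WNT4 (0.42, adjusted p = 0.0882 by limma), which passed when untreated day 7, BMP4 day 1 or BMP4 day 2 was left out. The median log2 change of the 7 ligands was 1.34 early and 1.65 late, beside 0.04 and 0.00 over all tested genes. A tested ligand had to be above the floor on at least 3 arrays, and since the untreated arm was mostly below it, passing through the BMP4 arm favours a higher call. With the day 0 difference subtracted, 2 of 7 early (WNT3, WNT5B), 3 of 7 late (WNT3, WNT5A, WNT5B) and 1 of 7 over days 1 to 7 (WNT5B) passed. Over days 1 to 7 WNT3 then had an adjusted p of 0.0606 by limma.

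**Figure D1:**
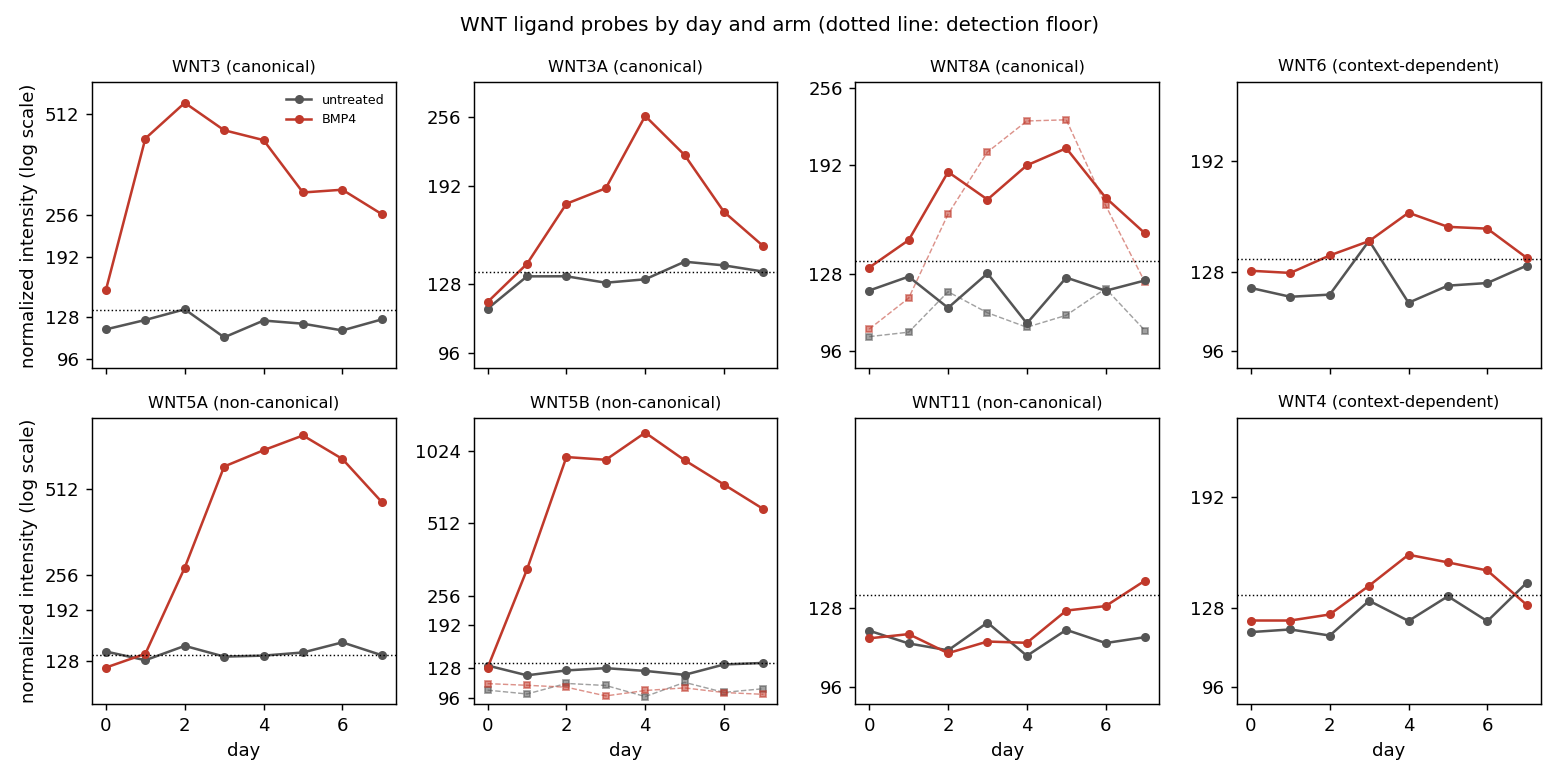
Intensity of each of the 8 WNT ligands by day, on a log axis with its own range in each of the 8 panels, 1 point per array, separate lines for the untreated and BMP4 arms, and the dotted line at the detection floor of 134.3. Dashed squares show the second probe of WNT5B and WNT8A. WNT5B climbs to 1225 on day 4, WNT5A to 785 on day 5 and WNT3 to 551 on day 2, while the untreated lines of the main probes stay between 106 and 148.

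WNT3, a canonical ligand needed in the mouse for the primitive streak, was the earliest to peak. In the untreated arm its intensity ranged from 111 to 135 with a median of 123, and 1 of 8 arrays was above the floor. With BMP4 it was 154 on day 0, then 432, 551, 457, 428, 299, 305 and 258 on days 1 to 7. All 8 BMP4 arrays lay above all 8 untreated arrays, day 0 included. The early change was 3.85 on the log2 scale (SE 0.24, n = 3 arrays per arm, limma adjusted p = 1.451e-08), at least 11.3-fold on the corrected scale, and the ratio of the deposited intensities was 3.87. The late change was 3.12 (SE 0.21, n = 4 arrays per arm, limma adjusted p = 5.301e-09), at least 6.43-fold. Less the day 0 difference these were 2.60 (adjusted p = 0.0129 by limma) and 1.88 (adjusted p = 0.0111 by limma), the latter more than 1.5 times smaller.

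WNT3A, which in the mouse maintains the streak and the paraxial mesoderm, came later and less strongly. The untreated arrays ranged from 115 to 140 with a median of 132, and 3 of 8 were above the floor. The BMP4 arrays gave 119 on day 0 and 139, 178, 190, 257, 219, 173 and 150 on days 1 to 7, with the highest on day 4. Within each window no BMP4 array overlapped an untreated one, but BMP4 day 1 lay below untreated day 5. The early change was 1.08 (SE 0.35, n = 3 arrays per arm, limma adjusted p = 0.0284), at least 1.92-fold. It no longer passed when any of 5 of the 6 early arrays was left out, with log2 changes of 0.84 to 1.10, and it was 0.36 on uncorrected intensities (adjusted p = 0.0828 by limma). The late change was 1.37 (SE 0.30, n = 4 arrays per arm, limma adjusted p = 0.00113), or 2.58-fold on the corrected scale, with 3 of 4 untreated arrays above the floor, and the ratio of the deposited intensities was 1.44.

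WNT8A, a canonical ligand of early mesoderm in vertebrates, was undetected without BMP4 on both of its probes. The untreated range of the brighter probe was 106 to 128.3 with a median of 123. With BMP4 it was 131 on day 0, just under the floor, and 145, 187, 169, 191.9, 205, 170 and 149 on days 1 to 7. On this probe every BMP4 array of days 1 to 7 was above every untreated array. The change was 1.34 early (SE 0.28, n = 3 arrays per arm, limma adjusted p = 0.00159), at least 1.91-fold. It was 1.65 late (SE 0.24, n = 4 arrays per arm, limma adjusted p = 1.825e-05), at least 2.24-fold. The second probe gave 1.29 early and 1.80 late, with BMP4 intensities of 104 to 227, so both probes moved the same way. Its arms were not fully apart, as BMP4 day 1, at 117.0, lay below untreated day 2 (119.8) and day 6 (121.2). On BMP4 days 1 and 7 the second probe was under the floor. Neither WNT3A (late 1.29, adjusted p = 0.195 by limma) nor WNT8A (late 1.27, adjusted p = 0.103 by limma) passed once the day 0 difference was subtracted.

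WNT5B, a non-canonical ligand and close relative of WNT5A, had the largest change of the 7. All 8 untreated arrays were below the floor, from 119 to 134 with a median of 126. With BMP4 the intensity was 127.8 on day 0, 329 on day 1, 969 on day 2, 944 on day 3, 1225 on day 4 and then 940, 744 and 588. The lowest BMP4 array of days 1 to 7 was thus well above every untreated array. The log2 change was 4.45 early (SE 0.39, n = 3 arrays per arm, limma adjusted p = 6.118e-07), at least 16.6-fold on the corrected scale, and the ratio of the deposited intensities was 5.42. It was 4.74 late (SE 0.34, n = 4 arrays per arm, limma adjusted p = 9.854e-09), at least 22.2-fold. Less the day 0 difference it was 4.56 and 4.85 (adjusted p = 0.00851 and 0.000851 by limma). The second WNT5B probe showed no rise, with changes of -0.02 early and -0.02 late. It stayed between 96.9 and 111 on all 16 arrays, never above the floor. The rise of WNT5B is thus read from 1 probe, and why the 2 probes differ was not tested.

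WNT5A, the non-canonical ligand best known for convergent extension and limb and axis outgrowth, rose from day 2 and was highest on day 5. Untreated it lay at 128.3 to 148 with a median of 135, and 4 of 8 arrays were above the floor. With BMP4 it was 121 on day 0, 135 on day 1, 271 on day 2, 612 on day 3, 697 on day 4, 785 on day 5, 650 on day 6 and 459 on day 7. The arms overlapped on day 1 and were apart from day 2 on. The early change was 2.10 (SE 0.60, n = 3 arrays per arm, limma adjusted p = 0.0137). The untreated arm was then at the floor, with 1 of 3 arrays above it, and the ratio of the deposited intensities was 2.09. It depended on day 3: without that BMP4 array it was 1.18 (adjusted p = 0.0669 by limma), and it also missed the threshold without untreated day 1 (adjusted p = 0.0510 by limma). The late change was 3.88 (SE 0.52, n = 4 arrays per arm, limma adjusted p = 7.647e-06), with 2 of 4 untreated arrays above the floor and a ratio of deposited intensities of 4.62. It was 4.50 less the day 0 difference (adjusted p = 0.0131 by limma).

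WNT6 and WNT4, ligands of epithelia and of the kidney and reproductive tract in the mouse, changed little and close to background. WNT6 ranged from 114 to 144 without BMP4, and with it was 129 on day 0 and 127.6, 136, 143, 159, 151, 150 and 135 on days 1 to 7. WNT4 ranged from 116 to 140 without BMP4, and with it was 122 on day 0 and 122, 125, 139, 155, 151, 147 and 129 on days 1 to 7. Neither passed early, with changes of 0.32 (SE 0.26) for WNT6 and 0.22 (SE 0.26) for WNT4 and limma adjusted p-values of 0.379 and 0.561. Late, WNT6 was higher by 0.91 (SE 0.22, n = 4 arrays per arm, limma adjusted p = 0.00243), at least 1.401-fold, with no overlap of the arms. WNT4 was higher by 0.57 (SE 0.22, n = 4 arrays per arm, limma adjusted p = 0.0401), at least 1.25-fold, and its arms overlapped on days 4 to 7. The WNT4 call was lost when any of 5 of the 8 late arrays was left out, with changes of 0.46 to 0.54. Neither passed with the day 0 difference subtracted.

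WNT11, a non-canonical ligand of the node, heart and kidney, was at background on 15 of 16 arrays. The untreated arrays lay between 107 and 121, and the BMP4 arrays at 115, 116, 108.5, 113, 113, 127, 129 and 141 on days 0 to 7. Only BMP4 day 7 crossed the floor. On days 4 to 7 the deposited intensities differed by a ratio of 1.12 (two-sided exact permutation p = 0.0857, n = 4 arrays per arm), where the smallest p that 4 against 4 allows is 0.0286. A fit over all 20046 genes with no filter on dim probes gave a late change of 0.43 (SE 0.14, limma adjusted p = 0.0213). No fold is given, since both arms were at background.

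**Figure D2:**
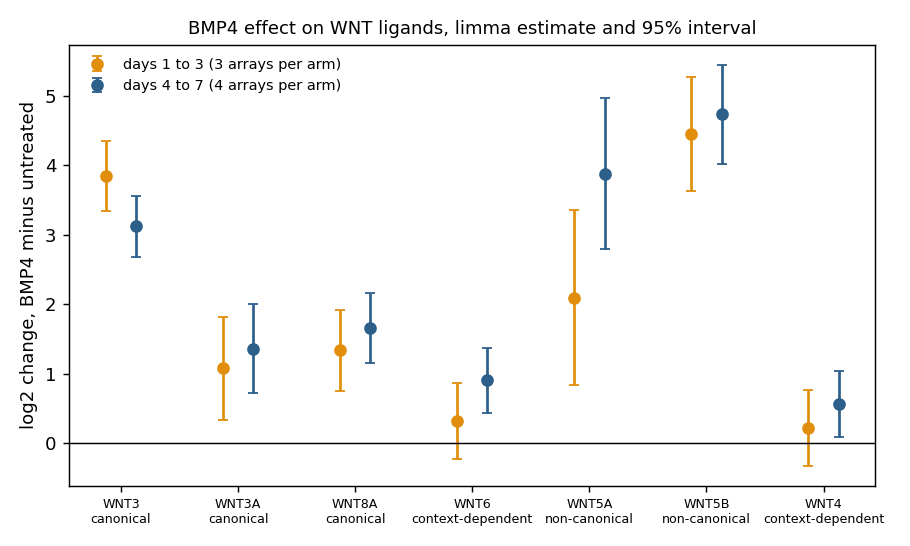
BMP4 minus untreated log2 change of the 7 tested WNT ligands in the early window (days 1 to 3) and the late window (days 4 to 7), with 95% confidence intervals from limma. WNT5B has the largest change in both windows (4.45 and 4.74), WNT5A moves from 2.10 to 3.88, and WNT4 and WNT6 lie nearest 0.

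Set by signalling class, the early window held 3 of 3 canonical ligands higher (median log2 change 1.34) and 2 of 2 tested non-canonical ligands higher (median 3.28). The 2 ligands of both modes did not pass early (median 0.27). In the late window all 7 tested ligands were higher, with medians of 1.65 for the canonical, 4.31 for the non-canonical and 0.74 for the other group. WNT11, also non-canonical, was removed by the filter on dim probes and is in neither non-canonical median. Fitted without that filter, WNT11 changed by -0.04 early and 0.43 late. WNT3 lay above WNT3A and WNT8A in both windows, so the canonical group was spread from 1.08 to 3.85 early, and the early range of the non-canonical pair, 2.10 to 4.45, overlapped it. With 3 and 2 genes no difference between the classes was tested. On the main probes the arms did not overlap for 4 ligands on days 1 to 3, 6 on days 4 to 7 and 3 (WNT3, WNT5B, WNT8A) on all of days 1 to 7. BMP4 arrays lay above all untreated arrays for 23.7%, 24.0% and 11.5% of all tested genes in these spans. Passing the filter through the BMP4 arm favours such a separation too, so these counts are a description. The second WNT8A probe overlapped between the arms on days 1 to 3.

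The ligands differed in when they came up. On day 1 the excess of BMP4 over untreated was 73.7% of its later maximum for WNT3, 21.6% for WNT8A, 19.1% for WNT5B, 5.56% for WNT3A and 1.05% for WNT5A. The excess was greatest on day 2 for WNT3 (417 intensity units), on day 4 for WNT5B (1101), WNT3A (127) and WNT8A (85.5), and on day 5 for WNT5A (649). It first exceeded 50% of that maximum on day 1 for WNT3, day 2 for WNT5B and WNT8A, day 3 for WNT5A and day 4 for WNT3A. By day 7 it was down to 31.7% for WNT3, 11.8% for WNT3A, 28.0% for WNT8A and 41.2% for WNT5B, and was 50.2% for WNT5A. The second WNT8A probe gave the same day of maximum and reached 50% on day 3. These are single arrays per day and carry no error.

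**Figure D3:**
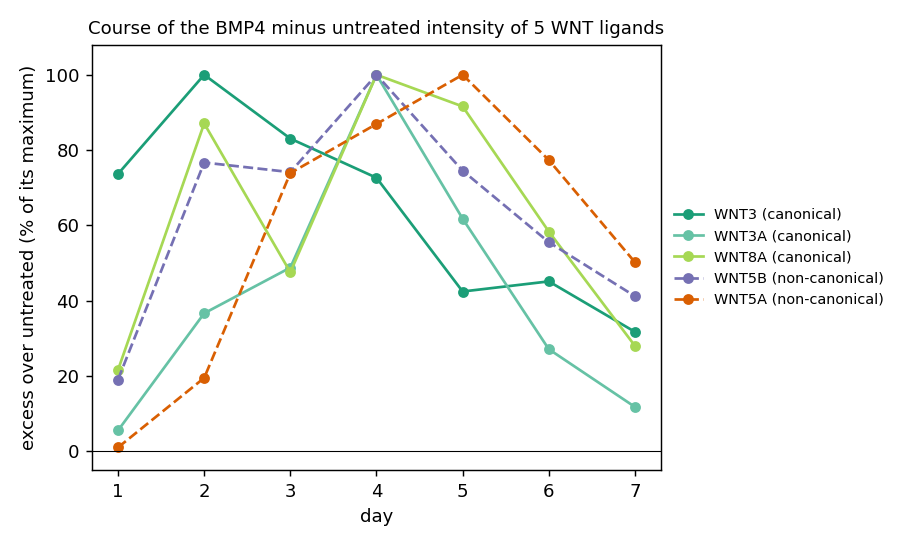
BMP4 minus untreated intensity of 5 WNT ligands by day, each as a percentage of its own greatest value, 1 array per arm and day. WNT3 stands at 73.7% on day 1, and WNT5A at 1.05% on day 1 and 100% on day 5.

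In the BMP4 arm itself the highest array was day 2 for WNT3, day 4 for WNT3A, WNT4, WNT5B and WNT6, and day 5 for WNT5A and WNT8A, and WNT11 was highest on day 7. Of the 3659 genes called higher in the late window 34.7% had their highest BMP4 array on day 7. The share was 5.74% for day 2, 10.9% for day 4 and 11.6% for day 5. Those genes were chosen by a late call, which favours a late highest array. From the early to the late window of the BMP4 arm WNT3 fell by 0.82 (SE 0.23, limma adjusted p = 0.0128) and WNT5A rose by 1.90 (SE 0.56, limma adjusted p = 0.0187), while 12.8% of all genes were called higher and 13.7% lower, 26.5% in all. The WNT3 call was lost without BMP4 day 2 (-0.69), and the WNT5A call without BMP4 day 1 (0.86) or day 5 (1.77). The other 5 ligands differed by 0.23 to 0.60 without passing, though WNT4 passed without BMP4 day 3 (0.79, adjusted p = 0.0301 by limma) or BMP4 day 7 (0.79, adjusted p = 0.0212 by limma). In the untreated arm no ligand passed between the windows, with changes of -0.14 to 0.25 and limma adjusted p-values of 0.898 to 0.982, where 0.0747% of genes were called.

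The difference between the late and the early BMP4 effect passed for none of the 7 ligands, and for 9.23% of all genes (4.93% higher and 4.31% lower). It was -0.73 for WNT3 (95% interval -1.396 to -0.05, limma adjusted p = 0.169) and 1.78 for WNT5A (0.12 to 3.44, limma adjusted p = 0.173), both with an unadjusted p under 0.05. For the other 5 it was 0.28 to 0.59. WNT5A passed when the early window was days 1 to 2 (2.75, adjusted p = 0.0107 by limma), and WNT3 when the late window was days 5 to 7 (-0.91, adjusted p = 0.0435 by limma). The earlier maximum of WNT3 and the later one of WNT5A are thus read from single daily arrays. The changes within the BMP4 arm went the same way, but were lost when certain single arrays were left out. The test of the difference did not establish this order.

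Markers of other cell types also moved over days 0 to 7. The 7 primitive streak markers, TBXT, MIXL1 and EOMES among them, had a summed intensity of 847 to 1021 untreated, with 1 to 4 of 7 above the floor. In the BMP4 arm the sum was 1210 on day 0, 2722 on day 1, 8186 on day 2, 8077 on day 3, 6263 on day 4, 2340 on day 5, 1488 on day 6 and 1159 on day 7, with 3 to 7 of 7 above the floor. The 4 amnion markers summed to 663 to 973 untreated and 721 to 11364 with BMP4, and the 7 trophoblast markers to 1033 to 1137 and 1199 to 4184. The 7 mesenchyme and fibroblast markers summed to 4227 to 5713 untreated and 3304 to 21164 with BMP4. With BMP4 their sum was below that of the same untreated day on days 0 to 4. It was then 9189, 14057 and 21164 on days 5 to 7. The 4 endoderm markers summed to 579 to 776 untreated and 531 to 1315 with BMP4. The 5 neural ectoderm markers moved in the untreated arm, from 699 on day 0 to 2752 on day 7 with 1 to 4 above the floor, and summed to 593 to 887 with BMP4, so the untreated arm was not constant over the late window. The part of any of these cell types in the ligand values was not tested.

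The genes whose log2 levels ran most like each ligand over the 16 arrays are given as a description, since the arrays share arms and days. For WNT3 they were HPGD, a prostaglandin-degrading enzyme (r = 0.991), ID1, a direct BMP target (r = 0.986), and IL6, a cytokine (r = 0.983). For WNT5A they were APLNR, the apelin receptor of mesoderm (r = 0.992), and the trunk patterning genes HOXB2 (r = 0.99) and HOXB6 (r = 0.982). For WNT5B they were CDX2, a caudal and trophoblast transcription factor (r = 0.997), the keratin pseudogene KRT16P2 (r = 0.99) and ACADL, a fatty acid oxidation enzyme (r = 0.987). WNT8A was most like MCOLN3 (r = 0.973), WNT5B (r = 0.958) and NKD1, a WNT feedback inhibitor (r = 0.956). WNT3A was most like TMEM131 (r = 0.948), the homeobox gene IRX3 (r = 0.946) and MESP1, a mesoderm transcription factor (r = 0.941). WNT4 ran with KDM7A (r = 0.930), DLL1, a Notch ligand (r = 0.891), and MARCKS (r = 0.884), and WNT6 with TMEM150C (r = 0.886), the keratin KRT16 (r = 0.884) and APOBEC3G (r = 0.883). Among the tested ligands themselves r ran from 0.471 for WNT3 and WNT4 to 0.958 for WNT5B and WNT8A.

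The counts of the following lists stand beside the shares of all tested genes given above, 16.1% higher and 13.3% lower early and 27.3% higher and 26.6% lower late. Of the other 11 WNT genes 2 were tested, and 9 were dim. Both WNT2 and WNT7B passed late and neither early. WNT2 was above the floor on 4 BMP4 and 0 untreated arrays, and WNT7B on 4 and 1. Passing the filter through the BMP4 arm favours a higher call here too. WNT2, a ligand of lung and placenta development, was 104 to 122 without BMP4, and with it 152, 179, 165 and 158 on days 4 to 7 (log2 change 1.53, SE 0.16, limma adjusted p = 4.275e-07, at least 1.86-fold). WNT7B changed by 0.42 (SE 0.15, limma adjusted p = 0.0259), at least 1.08-fold. Its second probe showed no rise, at 113 to 125 with BMP4 and 109 to 135 untreated, with 0 and 1 arrays above the floor. Less the day 0 difference WNT2 passed late and WNT7B did not. The 9 dim genes lay between 97.0 and 148, with at most 2 arrays above the floor each, and 6 were never above it. Among them were WNT9B and WNT10A, the next protein-coding genes to WNT3 on chromosome 17 and to WNT6 on chromosome 2. WNT9B was 116 to 129 on the BMP4 arrays and WNT10A 112 to 122, so neither was above the floor on any BMP4 array.

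WLS and NOTUM, which act on the WNT ligand itself, were also higher. WLS, the carrier that escorts WNT proteins to the cell surface, was 224 to 444 untreated, and with BMP4 290 on day 0, 1085 on day 1, 2950 on day 2, 3642 on day 3 and 4304 to 4687 from day 4. It was 14.2-fold higher early (log2 change 3.83, SE 0.37, limma adjusted p = 1.602e-06) and 18.6-fold higher late (4.22, SE 0.32, limma adjusted p = 1.646e-08), and it passed in both windows less the day 0 difference. NOTUM, an extracellular enzyme that removes the lipid of WNT ligands, was at least 2.06-fold higher early and at least 1.502-fold higher late. With these 2, both tested genes of the release and acylation list were higher. Less the day 0 difference both passed early and 1 of 2 late, as NOTUM missed the threshold (1.03, adjusted p = 0.0919 by limma), and the acyltransferase PORCN was not analysed here.

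Frizzled receptors were called in both directions. Of 10 frizzled receptors 1 was higher and 2 lower early, and 2 were higher and 6 lower late, with a late median of -0.51. Once day 0 was subtracted, 0 were higher and 1 lower early, and 0 higher and 3 lower late. FZD7, a frizzled enriched in pluripotent cells, was 1799 to 2197 untreated and 509 to 804 on BMP4 days 1 to 7, 3.58-fold lower early and 3.28-fold lower late (limma adjusted p = 4.819e-08). FZD5 was 4.73-fold lower late (limma adjusted p = 1.797e-07). FZD4 was 2.84-fold higher late, but its day 0 arrays already differed by 1.02, and less that difference its late change of 0.48 missed the threshold ( adjusted p = 0.334 by limma). The canonical co-receptors LRP5 and LRP6 passed in neither window, LRP6 with a late change of -0.48 (adjusted p = 0.0600 by limma).

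Of 4 non-canonical co-receptors, 1 was higher and 1 lower early, and 2 higher and 1 lower late. After day 0 subtraction none passed early, and only ROR1, lower, passed late. ROR2, a WNT5A receptor, was 1.85-fold higher late, with a day 0 difference of 1.09 and a change of -0.20 once that was subtracted. ROR1 was 2.09-fold lower late (limma adjusted p = 1.661e-05), and PTK7 1.48-fold higher. Of 9 planar cell polarity genes tested, 0 were higher and 2 lower early, and 3 higher and 2 lower late, a share near that of all genes called. After day 0 subtraction 0 were higher and 1 lower in each window, PRICKLE1 early (-1.48) and CELSR2 late. The cadherin CELSR2 was 3.38-fold lower late, PRICKLE1 2.20-fold higher and PRICKLE2 1.46-fold higher. PRICKLE1 turned to -0.38 with its day 0 difference of 1.52 subtracted.

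Of 7 tested genes for R-spondins, their receptors and ligases, which tune frizzled levels at the membrane, 1 was higher early and 5 late, and none was lower. With day 0 subtracted, 0 passed early and 1, RSPO3, late. RSPO3, an R-spondin that amplifies WNT signals, was 6.66-fold higher late, at 348, 393, 498 and 837 on BMP4 days 4 to 7 against 142 to 185 untreated. RSPO2 was 2.92-fold higher and LGR5, an R-spondin receptor, at least 1.58-fold higher. Of 11 tested genes on the antagonist list, not all of them secreted, 4 were higher and 3 lower early, and 4 higher and 5 lower late. Once day 0 was subtracted, 0 were higher and 1 lower early, and 2 higher and 4 lower late. DKK1, which blocks LRP5 and LRP6, was 22.8-fold higher late (limma adjusted p = 4.878e-08), and CER1, which binds NODAL and BMP, 6.22-fold higher. CER1 did not pass late on uncorrected intensities (adjusted p = 0.0687 by limma) or less the day 0 difference (adjusted p = 0.550 by limma). SHISA2, which holds frizzled receptors back in the endoplasmic reticulum, was 20.05-fold lower (limma adjusted p = 1.817e-08).

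Of 11 canonical target and feedback genes tested, 8 were higher early and 10 late, none lower, with medians of 1.41 and 1.26. LEF1, a transcription factor of the pathway and itself a target, was 11.2-fold higher late (limma adjusted p = 2.290e-08), and TNFRSF19, a TNF receptor family member, 9.36-fold. DKK1, NOTUM, LGR5, RNF43 and ZNRF3 belong to this list too and were already counted in the lists above, so the counts are not independent. After day 0 subtraction 1 of 11, NOTUM, passed early and 3 late. Of 10 signal transduction genes 3 were higher and 2 lower early, and 3 higher and 5 lower late. With day 0 subtracted, none passed early, and 0 were higher and 1, TCF7L1, lower late. TCF7L1, which represses WNT targets, was 4.29-fold lower late, DVL3 2.20-fold higher and CTNNB1, beta-catenin, 2.19-fold higher. DVL3 differed by 0.75 on day 0, and less that its late change was 0.38 (adjusted p = 0.498 by limma). The CTNNB1 probe differed by 1.00 on day 0, and less that its late change was 0.13 (adjusted p = 0.877 by limma).

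**Figure D4:**
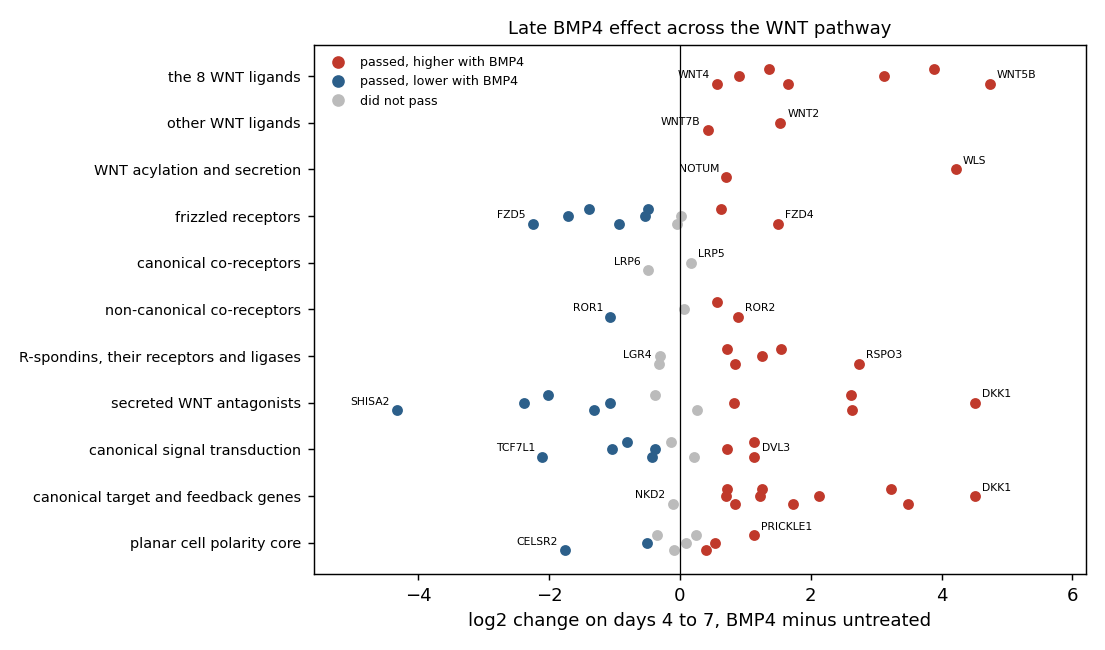
Late log2 change (days 4 to 7, BMP4 minus untreated) of every tested gene in 11 WNT pathway lists, 1 point per gene and 1 row per list, coloured by whether it passed at a limma adjusted p under 0.05. The 7 tested ligands all lie right of 0, up to WNT5B at 4.74, while 6 of 10 frizzled receptors lie to the left and passed.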

How the data were processed

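Labels gave each array's arm and day. The deposited intensity values had been quantile-normalized by the authors, as read from the values themselves. The labels name no software for that step. The deposited non-normalized table has 32 signal and detection columns whose names match no label, so it was left out, and the intended neqc correction could not be run. Instead a background peak (117.3, SD 7.65) was estimated from the values and removed by normexp in limma 3.58.1 (R 4.3.3), with an offset of 16, before log2. The floor of 134.3 is the 99th percentile of that background, and 42.6% of probes exceeded it. Of 47323 probes 30113 had 1 gene symbol, 8 several and 17202 none, and 30074 matched RefSeq gene records. A gene was tested if its brightest probe was above the floor on at least 3 arrays.

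One limma fit held 6 means (arm by day 0, days 1 to 3 and days 4 to 7), with moderated variances and an intensity trend. A second used days 1 to 7. The script was tested on simulated data. The alternatives were no background correction, offset 50, housekeeping centring, no filter or a filter of 6 arrays, the mean of all probes, no variance trend, day as a block, day 0 subtraction, shifted windows and leaving out each array. The precision is limited by the number of arrays. Named pathway genes are those that passed early or late, at most the 3 with the largest late change per list, or 1 where none passed. Named look-alikes are the 3 genes with the highest Pearson r. The members and lists were chosen with earlier results of these data known. Day pairs the arms by time point only, since no label says that they shared a culture.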

Additional observations from a re-analysis of the deposited data

Results flagged for a closer look

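Of 32 sets of arrays tested for a sample far from the others, 1 stood out, where chance alone marks about 1 in 20 such sets. It was WNT5B on the 8 BMP4 arrays, whose day 0 array had a log2 level of 4.79 (intensity 127.8). Its gap to the next array was 0.569 of the whole range, above the limit of 0.526 for 8 samples. Day 0 is the start of the time course, and the intensity there lay below the floor and within the range of the untreated arm.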

How the results depend on the processing

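All 7 tested ligands kept their direction early and late under each alternative run, except that WNT4 was not tested with a filter of 6 arrays. The day 0 subtraction changed most: genes called early went from 3935 to 315, late from 7225 to 2611 and over days 1 to 7 from 7015 to 366, and ligands called higher went from 5 to 2 early and from 7 to 3 late. With an early window of days 1 to 2, 2365 genes and 3 ligands were called early, and 1 ligand (WNT5A) in place of 0 had a larger late than early effect. With a late window of days 5 to 7, 2086 in place of 1237 genes differed between the windows, with 1 ligand (WNT3) in place of 0 lower. Calls between the untreated windows went from 10 to 1 without background correction, 4 with offset 50, 6 with a filter of 6 arrays and 58 with days 5 to 7. Leaving out 1 array gave 3 to 5 ligands higher early, with 3 without untreated day 1 or BMP4 day 3, and 678 to 2401 genes with a late minus early difference, lower by over 1.5 times without untreated days 1, 2 or 3 or BMP4 days 2 or 6 and higher by over 1.5 times without BMP4 days 3 or 4. It gave 0 to 1 ligands higher and 0 to 1 lower in that difference, without BMP4 day 3 and BMP4 day 4 respectively. It gave 2287 to 4440 genes between the BMP4 windows, against 3547 in all, the lowest without BMP4 day 2. It gave 1 to 28 between the untreated windows, lower by over 1.5 times without untreated days 1, 2, 3 or 6 and highest without day 4. With day as a replicate block 3999 genes passed early and 7186 late, and no ligand call changed. Of 785 single-ligand values, 743 kept their call, 32 lost it and 10 gained it. These values pool all contrasts, also those that no ligand passed in the main fit. A value that again did not pass counts as kept, whatever its sign, so the 743 are no measure of how stable the higher calls were. Uncorrected intensities shrank the changes, WNT3 to 1.95 early and 1.37 late and WNT5A to 1.07 and 2.21 and WNT5B to 2.44 and 2.73, by construction, as did averaging both probes for the early effect WNT5B showed (2.22) and the late effect WNT5B showed (2.36). Changes against an arm at background depend on the background estimate and the offset. The causes of the other shifts were not tested.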
